A study of Mus musculus with 10 samples.

Results

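The genes described here are 6 transcripts of the olfactory mucosa measured in RNA of whole brain: Bpifb9b, Bpifb3, Bpifb4, Omp, Cyp2g1 and Scgb1c1. They were taken by name, as the probe sets annotated with one of these symbols and no other, and each of the 6 had 1 probe set among 21789 probe sets with 1 gene symbol, which stand for 19938 genes (35556 probe sets in all). The names were proposed from levels on these same arrays, above all the controls of experiment 2, so the levels in that experiment are given as a description and carry no test. The brains came from male offspring of C57BL/6J mice, killed at postnatal day 70. The dams drank 10% ethanol in water (ethanol groups) or water alone (control groups) through pregnancy and until the pups were 10 days old. Experiment 1 had 2 ethanol and 2 control arrays, each of RNA pooled from 3 mice, and experiment 2, with separate mice, had 3 ethanol and 3 control arrays, each of RNA pooled from 2 mice. No source used here says whether pools shared litters, so a p-value measures the spread between pools.

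The olfactory mucosa lines the back of the nasal cavity, in front of the olfactory bulb. Its sensory neurons bear odorant receptors and send axons to the bulb, its sustentacular cells support them and are rich in enzymes that metabolise inhaled chemicals, and its Bowman glands, with the other nasal glands, secrete the mucus with its odorant- and lipid-binding proteins. BPI fold proteins, the family of Bpifb9b, Bpifb3 and Bpifb4, are secreted proteins related to the bactericidal permeability-increasing protein, and several are products of nasal glands. Omp encodes olfactory marker protein, a cytosolic protein of mature olfactory sensory neurons. Cyp2g1 is a cytochrome P450 known for its expression in the olfactory mucosa, and Scgb1c1 is a secretoglobin, a small secreted protein of the same tissue.

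The deposited values are log2 expression levels. Each probe set had the same mean in experiment 1 as in experiment 2 (largest difference 5.83e-05), so levels were compared within an experiment only. Array medians ran from 6.99 to 7.05 over all probe sets, and no array stood apart in that measure. The 8 brain markers measured included Gfap, Slc17a7, Cx3cr1 and Gad1. Their mean deviation from their experiment's mean lay between -0.05 and 0.04 log2 units on the 10 arrays.

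All 6 genes were highest on the same array of experiment 2, control replicate 2. On that array Scgb1c1 stood 14.0-fold, Bpifb9b 13.9-fold, Cyp2g1 11.4-fold and Bpifb3 3.68-fold above the mean of the 2 other controls, and Omp and Bpifb4 stood 1.68-fold and 1.43-fold above it. Of all 21789 probe sets, 0.0918% (20) were at least 2-fold above the other controls on this array, and 4 of the 6 genes were among these. For 16.5% of all probe sets it was the highest array of experiment 2. Since the genes were chosen for their level on these arrays, nothing is read from these counts. A single array has no replicate, and in bulk RNA more cells of a type and more RNA per cell cannot be told apart.

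The upstream sequences of the pair with the widest excess, Scgb1c1 and Bpifb9b, are shown because these genes lie on different chromosomes and stood out on the same array. They are the 150 bases before the annotated start, from RefSeq on GRCm38.p6, at chr7:140845415-140845564 (plus strand) and chr2:154307094-154307243 (plus strand). Capitals mark the letters TATAAA, the core of the TATA box motif, whose first base in the Bpifb9b window is at -47 from the annotated start. Whether they act as a TATA box was not tested.
Scgb1c1: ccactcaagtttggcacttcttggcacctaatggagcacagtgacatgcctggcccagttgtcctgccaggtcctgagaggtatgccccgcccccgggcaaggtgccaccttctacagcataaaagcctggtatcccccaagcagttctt
Bpifb9b: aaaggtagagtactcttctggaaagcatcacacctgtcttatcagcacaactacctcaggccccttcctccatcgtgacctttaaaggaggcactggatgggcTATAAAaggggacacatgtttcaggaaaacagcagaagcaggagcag
RefSeq promoters were matched for 4 of the 6 genes (5 windows, since Bpifb3 had 2 starts). On either strand, TATAAA was found in the Bpifb9b window and in none of the other 4, against 7.57% of 32851 promoter windows of the same length. TAATTA, a homeodomain core and its own reverse complement, was in none of the 5 windows, against 2.73% of all windows. A match or its absence describes these letters in this window and nothing more.

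Among the secreted BPI fold proteins, Bpifb9b (probe set 10477536) had levels of 6.37, 10.01 and 6.05 on control replicates 1, 2 and 3 of experiment 2, while ethanol replicates 1, 2 and 3 gave 6.45, 5.86 and 5.96. Control replicate 2 was therefore 3.56 log2 units above the next highest array, ethanol replicate 1, while the 5 other arrays of that experiment spanned 0.58. In experiment 1 Bpifb9b was at 6.95 and 6.60 on the controls and 6.64 and 6.95 on the ethanol arrays, and the groups overlapped.

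Bpifb3 (probe set 10477406) was at 5.43, 7.28 and 5.37 on the controls of experiment 2 and at 5.45, 5.38 and 5.35 on its ethanol arrays. Without control replicate 2 these values spanned 0.10 log2 units. Its 4 arrays of experiment 1, at 5.67 and 5.69 (controls) and 5.81 and 5.66 (ethanol), spanned 0.15.

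Bpifb4 (probe set 10477423) had the smallest excess of the 6, with 5.79, 6.29 and 5.75 on the controls of experiment 2 and 5.92, 5.74 and 5.85 on the ethanol arrays. Control replicate 2 lay 0.37 above the next array, again ethanol replicate 1. The values in experiment 1 were 5.88 and 5.83 on the controls and 6.03 and 5.81 on the ethanol arrays, a span of 0.21 for arrays that did not include it.

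Omp (probe set 10565705), the sensory neuron gene, was at 6.30, 7.03 and 6.26 on the controls of experiment 2 and 6.36, 6.43 and 6.56 on its ethanol arrays. It is the member in which ethanol replicate 1 was not next highest: that was ethanol replicate 3, and control replicate 2 lay 0.47 above it. In experiment 1 Omp was at 6.44 and 6.65 on the controls and 6.69 and 6.18 on the ethanol arrays, a span of 0.51, which is wider than that gap.

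Cyp2g1 (probe set 10551273), the mucosal P450, was at 5.30, 8.72 and 5.11 on the controls of experiment 2 and 6.05, 5.22 and 5.04 on the ethanol arrays. Here a further array stood out: ethanol replicate 1 was 0.93 log2 units (1.90-fold) above the mean of the other ethanol arrays, though 2.67 below control replicate 2. The 4 arrays of experiment 1 had 5.84 and 5.92 (controls) and 5.87 and 6.00 (ethanol).

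Scgb1c1 (probe set 10558694), the secretoglobin, followed Cyp2g1, with 4.93, 8.73 and 4.91 on the controls of experiment 2 and 5.97, 4.84 and 4.90 on the ethanol arrays. Ethanol replicate 1 was 1.09 log2 units (2.14-fold) above the mean of the other ethanol arrays, and the 4 remaining arrays lay between 4.84 and 4.93. In experiment 1 its values were 5.78 and 5.64 on the controls and 5.77 and 5.67 on the ethanol arrays.

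**Figure D1:**
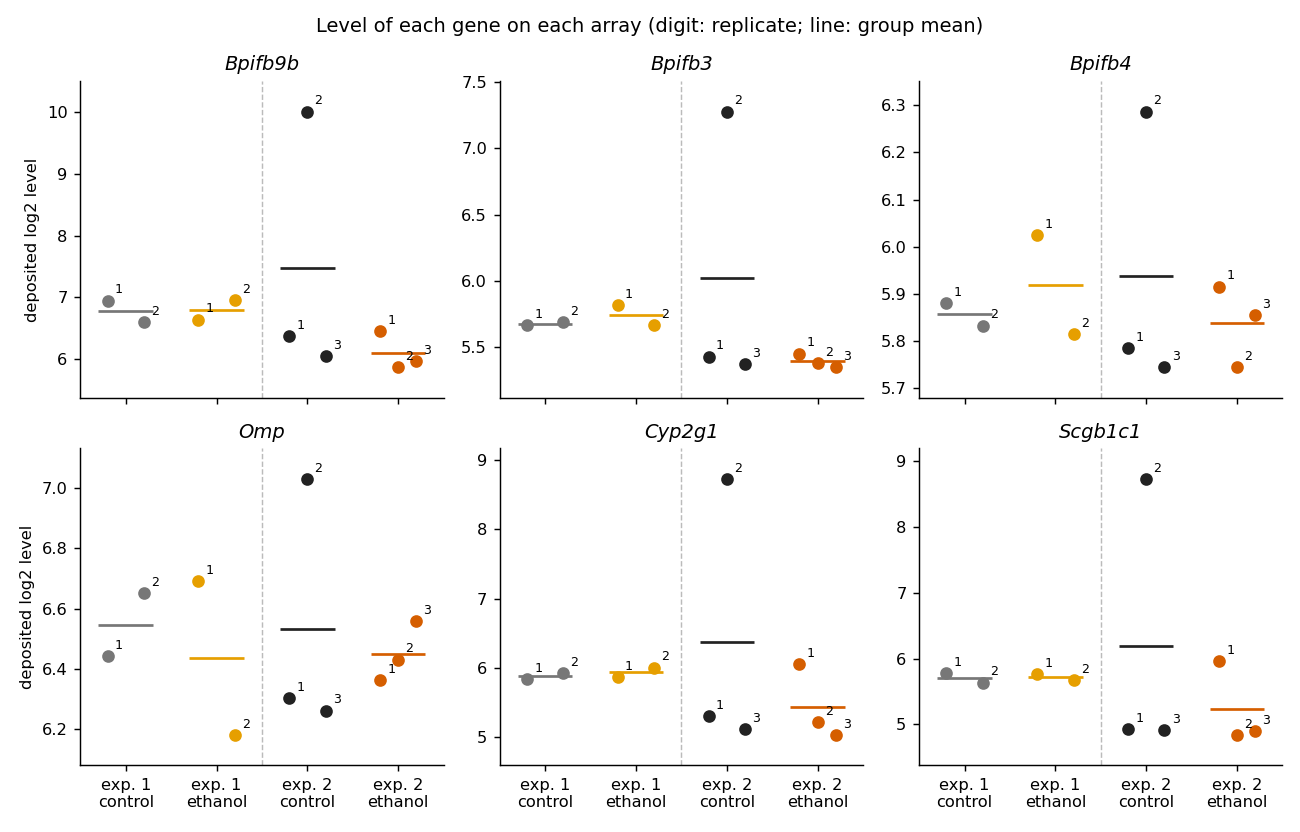
Deposited log2 level (vertical axes, each gene on its own scale) of the 6 genes on the 10 arrays, by experiment and treatment; each point is an array with its replicate number and each line a group mean. Control replicate 2 of experiment 2 is the highest point of that experiment in every panel, and ethanol replicate 1 lies above the other ethanol arrays for Cyp2g1 and Scgb1c1.

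The 3 controls of experiment 2 thus differed by a median of 2.76 log2 units (highest minus lowest) over the 6 genes, against a median of 0.13 over all probe sets. Without control replicate 2 the other 2 controls differed by a median of 0.05 over the 6 genes. For all 6 genes the same array set the width of the control group.

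The 6 genes were high together on that array, and on the rest their levels were less alike. Over the 10 arrays, as deviations from the mean of each experiment, the 15 pairs of genes had correlations (Pearson r) from 0.71 to 0.99 with a median of 0.92. On the 9 arrays without control replicate 2 they ran from -0.62 to 0.93, with a median of 0.44. Cyp2g1 with Scgb1c1 had the highest of these, r = 0.93, and Bpifb9b with Omp the lowest. With ethanol replicate 1 left out as well (8 arrays), the median was 0.16 and that of Cyp2g1 with Scgb1c1 was -0.35. These correlations rest on 1 or 2 arrays of experiment 2 and are descriptions with no p.

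Other genes of the nose were taken from lists by cell type. The lists used here and below were chosen with earlier results of these data known. Their counts, on either array, are therefore a description with no test. Of 19 secretions of nasal glands measured (23 listed), 15 were higher on control replicate 2 than on the mean of the other controls, against 45.9% of all probe sets, and 7 were at least 2-fold higher, against 0.0918%. Bpifa1, an abundant BPI fold protein of airway mucus, had 9.44 there against 5.37 and 4.94 on control replicates 1 and 3 (19.5-fold over their mean). Obp2a, an odorant-binding protein, had 8.17 against 4.87 and 4.27. Obp1a, another of these, had 7.68 against 5.20 and 4.81. Bpifb9a, a close relative of Bpifb9b, had 8.58 against 5.75 and 5.85. Named after their values were seen, the other 3 were Reg3g, an antimicrobial lectin (3.00-fold), Mup5, a major urinary protein (2.44-fold), and the lipocalin Lcn11 (2.06-fold).

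Of 11 enzymes and other markers of sustentacular cells and Bowman glands measured (16 listed), 11 were higher on control replicate 2 (45.9% of all probe sets were), and 2 at least 2-fold (0.0918% of all probe sets). Cyp2f2, a P450 of airway epithelium, had 8.07 there against 5.82 and 5.71 on the other controls, and Cbr2, a carbonyl reductase, 7.64 against 5.75 and 5.60. Sec14l3, a lipid transfer protein, and Sult1d1, a sulfotransferase, were 0.47 and 0.39 log2 units above the other controls.

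Of 15 sensory neuron genes measured (16 listed), 12 were higher on that array and 1 at least 2-fold, against the same 45.9% and 0.0918%. This was Stoml3, a stomatin-like protein of sensory neurons, with 8.87 against 6.75 and 5.76, so that the other controls also differed from each other by 0.99. S100a5, a calcium-binding protein of these neurons, was 0.70 higher, Gng13, a G protein subunit, 0.34 and Cnga2, the olfactory cyclic nucleotide-gated channel, 0.32. These genes were named for the widest spread over the controls. The median excess of the 15 sensory neuron genes was 0.11 log2 units and the lowest -0.17, and 2 of the 15 were at least 0.5 higher. The 1027 olfactory receptor genes measured had a median excess of 0.03 log2 units on control replicate 2. Of these, 612 were higher, against 45.9% of all probe sets, and 0 at least 2-fold higher, against 0.0918%. The 167 vomeronasal receptor genes measured had a median excess of 0.04, with 108 higher and 0 at least 2-fold higher, against the same shares. At a share of 0.0918% lists of these sizes could well hold none, so nothing is read from either 0. For all probe sets the median was -0.01. The excess of Omp, 0.75, was above the 0.57 of the highest receptor gene.

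Nasal gland secretions were high on 2 arrays of experiment 2, and not the same ones led on each. The median excess of the list was 0.34 log2 units on control replicate 2 and 0.08 on ethanol replicate 1. On ethanol replicate 1, 8 of the 19 nasal gland secretions were at least 2-fold above the other ethanol arrays, against 0.0826% of all probe sets, while of the 6 genes 1 was (Scgb1c1). Obp2a had 10.7 there and 4.46 and 4.34 on ethanol replicates 2 and 3, and Obp1a 10.1 against 5.02 and 4.82. Both were higher on ethanol replicate 1 than on control replicate 2. Named after its values were seen, Lcn11 was at 9.46 against 6.33 on control replicate 2. Bpifa1 went the other way, at 6.80 against 9.44, as did Bpifb9b, at 6.45 against 10.01, and Bpifb9a was at 5.77 on ethanol replicate 1, among 5.78 and 5.73 on the other ethanol arrays. Obp2a, Obp1a and Lcn11 were thus higher on ethanol replicate 1, and Bpifa1, Bpifb9b and Bpifb9a on control replicate 2. Of the probe sets at least 2-fold high, 8 were common to both arrays, 40.0% of the 20 on control replicate 2 and 44.4% of the 18 on ethanol replicate 1. The difference between these arrays was not tested, as each is a single pool.

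**Figure D2:**
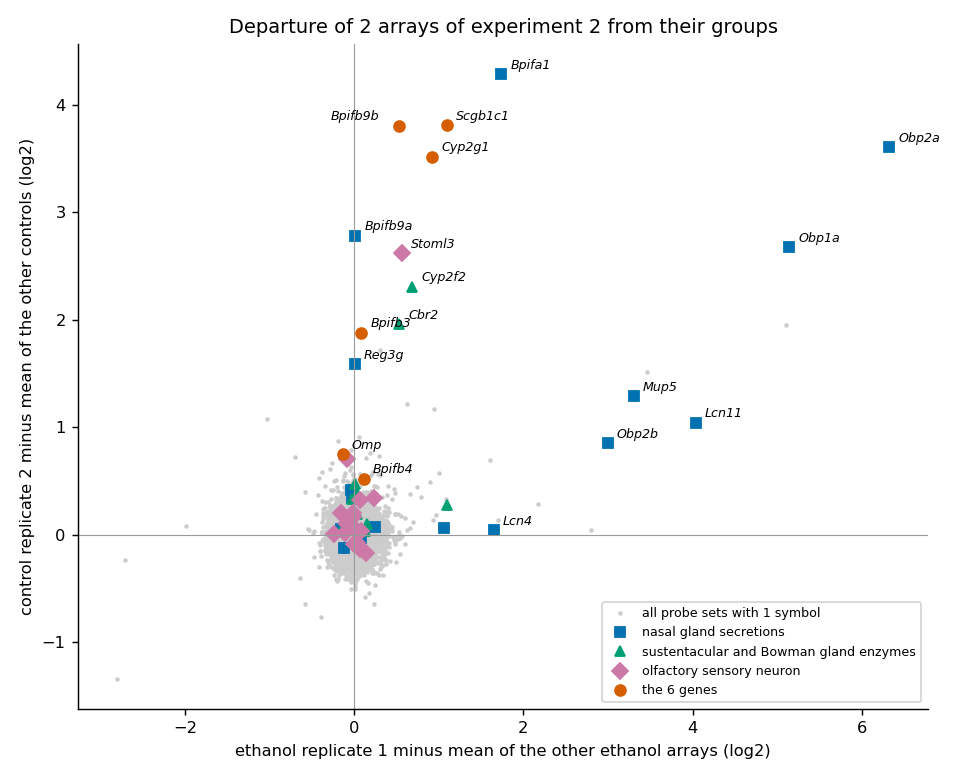
Departure of control replicate 2 from the mean of the other controls (vertical axis, log2) against that of ethanol replicate 1 from the mean of the other ethanol arrays (horizontal axis, log2) in experiment 2, for all 21789 probe sets with 1 symbol (grey). Scgb1c1, Bpifb9b and Cyp2g1 lie at 3.81, 3.80 and 3.52 on the vertical axis and at 1.09, 0.53 and 0.93 on the horizontal one, while Obp2a lies at 3.60 and 6.32.

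Markers of other tissues near the nose and brain were read on the same array. They included bone and cartilage (13 measured), skeletal muscle (12), blood and marrow (8), general epithelium (12), olfactory bulb (18) and anterior pituitary (9). Each of these lists had 0 genes at least 2-fold higher on control replicate 2, against 0.0918% of all probe sets. A list this short would seldom hold any at that share, so nothing is read from the 0. The median excess of these lists there ran from -0.08 for the pituitary to 0.08 for epithelium. Of the bone and cartilage genes 6 of 13 were higher there, against 45.9% of all probe sets. Ibsp, a bone sialoprotein, stood 0.44 and Mmp13, a collagenase of bone, 0.39 above the other controls. Sp7, a transcription factor of osteoblasts, and Col2a1, the cartilage collagen, were at -0.28 and -0.23. Of the epithelial genes 7 of 12 were higher, against the same 45.9%. The keratins Krt18, Krt8 and Krt15 were at 0.32, 0.28 and -0.14 and the adhesion molecule Epcam at 0.23. The pituitary genes, which were high on ethanol replicate 2 of experiment 2 (mean deviation 1.59), had a mean deviation of -0.46 on control replicate 2. Their mean deviation was -0.40 and -0.09 on control replicates 1 and 3, and -0.33 and -0.31 on ethanol replicates 1 and 3. Choroid plexus markers deviated by 0.13 on control replicate 2 and 0.12 on control replicate 1, and meningeal markers by 0.13 and 0.10. On control replicate 2, 12 of 16 choroid plexus and 7 of 12 meningeal markers were higher than on the other controls, against the same 45.9%. On the meningeal list, whose median excess was 0.03, the collagens Col1a1 and Col1a2 were 0.54 and 0.56 above the other controls, and Slc6a13, a GABA transporter, and Aldh1a2, a retinaldehyde dehydrogenase, were at -0.29 and -0.32. The part of these tissues in the levels of the 6 genes was not tested.

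**Figure D3:**
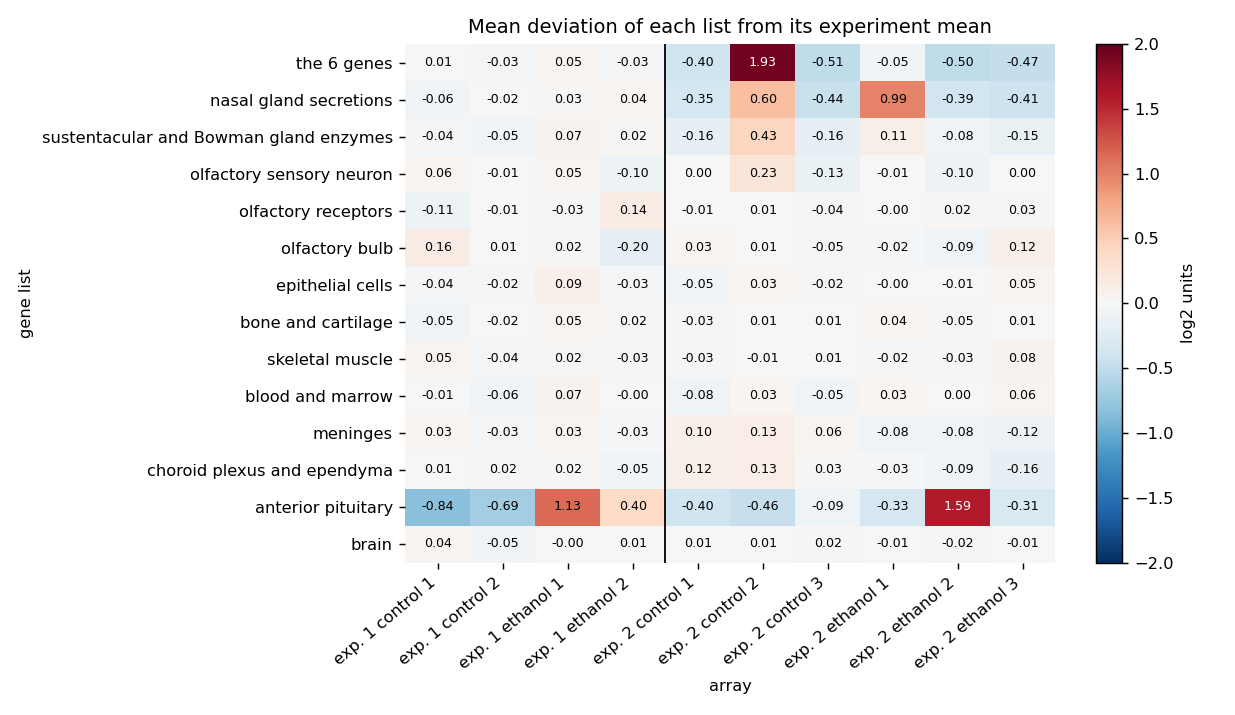
Mean deviation from the experiment's mean (colour and number, log2 units) of the 6 genes and of 13 marker lists (rows) on the 10 arrays (columns; the line separates the experiments). The 6 genes reach 1.93 on control replicate 2 of experiment 2, where the nasal gland list is at 0.60, and the mean of the nasal gland list is 0.99 on ethanol replicate 1, while the median deviation of that list is 0.13 on the former and 0.09 on the latter.

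The genes whose pattern was most like the mean of the 6 were sought over all 10 arrays, by Pearson correlation of deviations from the experiment mean, among probe sets that ranged over at least 0.5 log2 units. The 12 best were Gpx6, Cbr2, Bpifb9a, Reg3g, Bpifa1, Cyp2f2, Col1a2, Stoml3, Adh1, Sec14l3, Vmo1 and Pon1, with r from 0.996 to 0.887. The mean deviation of the 6 genes was 1.93 on control replicate 2, so a high level there was fixed by this selection and nothing is read from it. Without that array 8 of the 12 ranged over less than 0.5. Gpx6, a glutathione peroxidase known from the olfactory mucosa and on none of the lists, came first, with 7.57 on control replicate 2 against 5.85 and 5.85 on the other controls. Adh1, an alcohol dehydrogenase, had 6.34 there against 5.86 and 5.84. Vmo1, a secreted protein, and Pon1, the paraoxonase, were 1.42-fold and 1.39-fold above the other controls. Without control replicate 2 the correlation was 0.98 for Bpifa1, 0.89 for Gpx6 and for Cbr2, 0.85 for Cyp2f2 and 0.63 for Stoml3. On ethanol replicate 1 these genes were 1.74, 0.31, 0.53, 0.69 and 0.57 log2 units above the mean of the other ethanol arrays, in that order. Their correlation with that array left out as well was not computed. For the other 7, r without control replicate 2 was 0.23 (Reg3g), 0.22 (Sec14l3), 0.12 (Vmo1), 0.05 (Adh1), -0.01 (Bpifb9a), -0.11 (Pon1) and -0.11 (Col1a2). The likeness of these 7 rests on control replicate 2.

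Bpifb9b, Bpifb3 and Bpifb4 belong to the Bpif cluster on chromosome 2, in which RefSeq lists 13 genes, all measured here. Of the 13, 4 were at least 2-fold higher on control replicate 2, against 0.0918% of all probe sets: Bpifa1, Bpifb9b, Bpifb9a and Bpifb3. Bpifb9b and Bpifb3 are members, chosen for their level on these arrays, so nothing is read from this count. Neighbours in the cluster differed widely. Bpifb5, next to Bpifb9a, had an excess of -0.03, and Bpifa5 and Bpifa3, on either side of Bpifa1, had -0.02 and 0.13. Bpifb6, which precedes Bpifb3, had 0.41 and Bpifb4, which follows it, 0.52. These cluster genes other than the members and Bpifa1 and Bpifb9a were named for their position. Bpifb9a and Bpifb9b are neighbours and closely related, and whether their probe sets measure both transcripts was not tested. On ethanol replicate 1 the 2 probe sets differed, with an excess of 0.02 and 0.53.

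**Figure D4:**
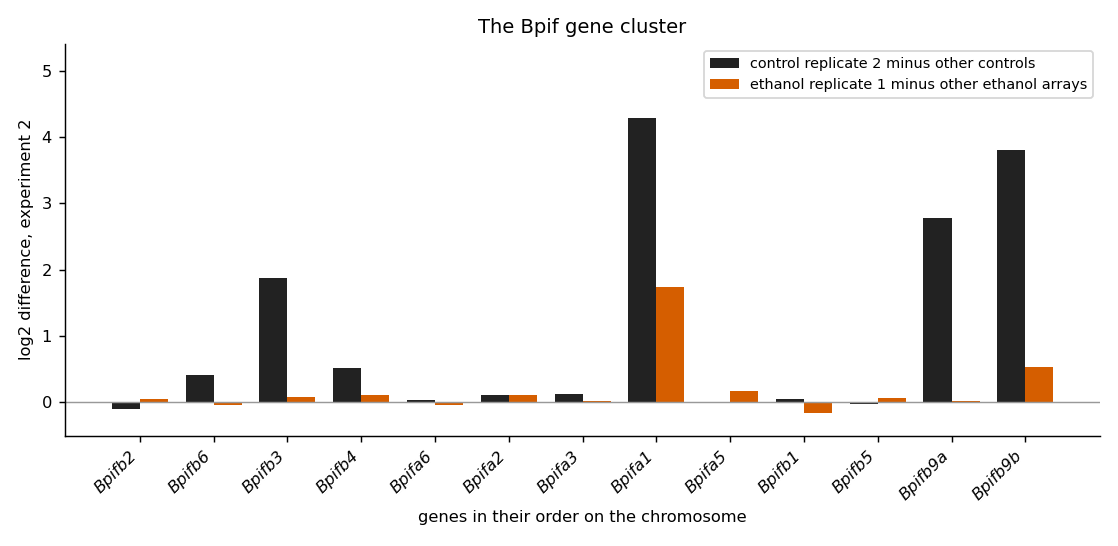
Log2 excess of control replicate 2 over the other controls (black) and of ethanol replicate 1 over the other ethanol arrays (orange) in experiment 2, for the 13 Bpif genes of chromosome 2 in chromosome order. Bpifa1, Bpifb9b, Bpifb9a and Bpifb3 reach 4.28, 3.80, 2.78 and 1.88 on control replicate 2, and Bpifa1 alone passes 1 on ethanol replicate 1, at 1.74.

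The design compares adult brains after early exposure to ethanol with those of unexposed offspring. In experiment 1, whose arrays the choice of genes did not single out, limma called 0 of the 6 genes and 0 of all probe sets (0.0%) at adjusted p 0.05, with 1951 probe sets but 0 of the 6 at an unadjusted p under 0.05. The ethanol minus control differences were 0.02 ± 0.94 log2 units (SE) for Bpifb9b, 0.06 ± 0.46 for Bpifb3, 0.06 ± 0.15 for Bpifb4, -0.11 ± 0.22 for Omp, 0.05 ± 0.88 for Cyp2g1 and 0.02 ± 0.96 for Scgb1c1, with limma adjusted p from 0.925 to 0.997. The fit pools the spread of all groups, control replicate 2 of experiment 2 included. With experiment 1 fitted alone the errors were 0.09 to 0.16, and limma again called 0 of the 6 (adjusted p from 0.972 to 0.994) and 1 of all probe sets. Without ethanol replicate 1 of experiment 1, which leaves 1 ethanol array there, assumed to vary like the other groups, it called 235 of the 21789 probe sets and 0 of the 6. Each difference in experiment 1 was smaller than its error under both fits.

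In experiment 2, from which the genes were chosen, the differences are a description with no test. The errors are standard errors of the difference from limma, whose fit pools the spread of all groups of both experiments. The median was -0.79 log2 units, and the values were -1.38 ± 0.76 for Bpifb9b, -0.95 ± 0.78 for Scgb1c1, -0.94 ± 0.72 for Cyp2g1, -0.63 ± 0.37 for Bpifb3, -0.10 ± 0.12 for Bpifb4 and -0.08 ± 0.18 for Omp. Without control replicate 2 the median was 0.12. Bpifb9b was then at -0.12 ± 0.18 and Bpifb3 at -0.01 ± 0.07, while Scgb1c1 (0.32 ± 0.26), Cyp2g1 (0.23 ± 0.23), Omp (0.17 ± 0.13) and Bpifb4 (0.07 ± 0.08) were positive. With ethanol replicate 1 left out too, an alternative chosen after seeing the data, the median was -0.04, with Bpifb9b at -0.29, Cyp2g1 at -0.08, Scgb1c1 at -0.05, Bpifb3 at -0.03, Bpifb4 at 0.03 and Omp at 0.21.

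Over both experiments, which include those arrays, the differences, again with no test, ran from -0.82 ± 0.60 for Bpifb9b to -0.04 ± 0.09 for Bpifb4, with a median of -0.45. With that control array left out the median was 0.06 and Bpifb9b was at -0.05 ± 0.13. Of the lists of nasal gland secretions, sustentacular and gland enzymes and sensory neuron genes, limma called 0 genes in either direction in either experiment or over both. It called 0 of all probe sets (0.0%) in each, with 2172 in experiment 2 and 2703 over both at an unadjusted p under 0.05, of which the 3 lists held 2 and 2. The median differences in experiment 1 were 0.07, 0.08 and -0.06, and in experiment 2 0.10, -0.03 and -0.02.

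**Figure D5:**
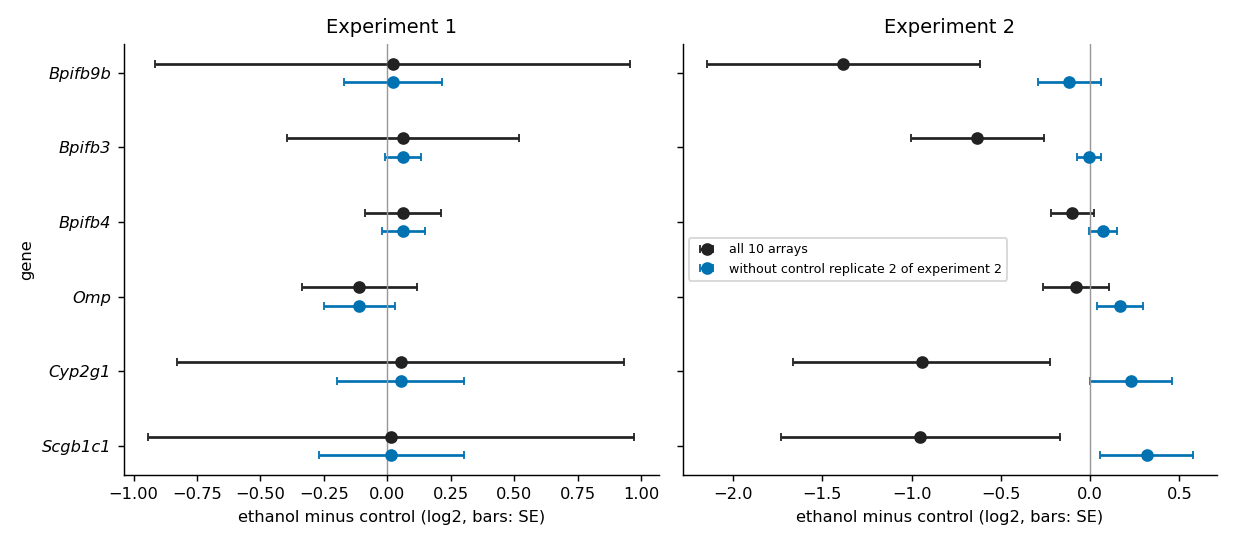
Ethanol minus control difference (horizontal axis, log2, with the standard error from limma as bars) of the 6 genes in experiment 1 (left) and experiment 2 (right), with all 10 arrays (black) and without control replicate 2 of experiment 2 (blue). In experiment 2 Bpifb9b goes from -1.38 to -0.12 and Scgb1c1 from -0.95 to 0.32, and in experiment 1 only the bars change.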

How the data were processed

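Pooled whole-brain RNA was hybridised to Affymetrix arrays that cover whole transcripts, as the labels' protocols state. The authors deposited log2 expression levels per probe set. The submitters' processing notes name Partek 6.6. How background was corrected, how arrays were normalized and what made the experiment means equal: not given in the sources used here. Array data have no read depth, and the number of arrays limits the precision.

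Groups were taken from the sample titles. Probe sets were named from the platform annotation, and symbols were checked through Entrez identifiers against RefSeq (GRCm38.p6), which changed 0 of them. limma 3.58.1 in R 4.3.3 (lmFit, eBayes, Benjamini-Hochberg adjustment over 21789 probe sets) estimated the 4 group means, or terms for experiment and treatment over both. It was tested on simulated data. The excess of an array is its log2 level minus the mean of the other arrays of its group. A gene with several probe sets was represented by that with the highest mean. Genes were named by rule: all 6, up to 4 per list with the widest spread over the controls of experiment 2, and the 12 most alike. For some lists, among them olfactory bulb and anterior pituitary, no gene was named. Deviations were computed in Python 3.11.15 with pandas 2.3.3.

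The 6 genes, the lists and the rules were chosen with earlier results of these data known. The alternatives changed the scaling (quantile normalization, centring on the median), the probe sets tested (without dim ones, or with unnamed ones), the variance prior, the weights, the arrays (each left out, each experiment alone) and added a replicate block.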

Additional observations from a re-analysis of the deposited data

How the results depend on the processing

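In experiment 1 limma called 0 of the 6 genes under every alternative that gave a value, the replicate block (0 called) included. Over all probe sets it called 0 in experiment 1 except 235 of 21789 without ethanol replicate 1 of experiment 1, 1 without ethanol replicate 2 of experiment 2 and 1 with experiment 1 alone. In experiment 2 it called 3 with a trended and robust prior, 2 with array weights and 1 without control replicate 3 of that experiment. Over both experiments it called 1 without ethanol replicate 2 of experiment 1. For the 6 genes these fits are a description with no test, so nothing is read from whether they were called. The sample titles give same-numbered arrays a shared number and state no pairing. The deviations of same-numbered arrays correlated between -0.15 and 0.23, which cannot settle whether they were paired. The median spread of the 6 genes over the controls of experiment 2 ran from 0.050 to 2.76 when each of these arrays was left out in turn, the lowest without control replicate 2. The filter above the median left none of the 6 genes, so it gave no value, and the filter at the 25th percentile kept 4, by means that include control replicate 2. Without control replicate 2 of experiment 2, the difference over both experiments was positive for 5 of the 6 genes, up to 0.18 for Scgb1c1, and negative for Bpifb9b. Differences in experiment 1 were near 0 and changed sign. After quantile normalization Cyp2g1 was at -0.0037 and Scgb1c1 at -0.038. With each array left out in turn the ranges were -0.151 to 0.195 for Bpifb9b, -0.0134 to 0.137 for Bpifb3, -0.0424 to 0.168 for Bpifb4, -0.364 to 0.145 for Omp, -0.0162 to 0.121 for Cyp2g1 and -0.0555 to 0.0860 for Scgb1c1. The cause was not tested.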

Other observations

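Genes on none of the lists and at least 2-fold high on 1 of the 2 arrays were named after their values were seen. Gm14743 and BC051076 were high on both arrays of experiment 2: Gm14743 was at 9.82 on ethanol replicate 1 and 6.66 on control replicate 2 against 4.67 to 4.74 on the other arrays, and BC051076 was at 9.41 and 7.27 against 5.54 to 5.97. The secretoglobins Scgb2b27 and Scgb1b27 were high on ethanol replicate 1, 6.94-fold and 3.25-fold above the other ethanol arrays. On control replicate 2 their excess was 0.04 and 0.14 log2 units, where the secretoglobin Scgb1c1 had 3.81.

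Npas4, an activity-induced transcription factor of neurons, was 2.25-fold above the other controls on control replicate 2, at 8.59 against 7.58 and 7.27. Its levels on ethanol replicates 1, 2 and 3 were 8.84, 7.62 and 8.16, and it was at 7.32 and 8.16 on the controls and 7.78 and 8.78 on the ethanol arrays of experiment 1. Snord14e, a small nucleolar RNA, was 2.32-fold higher on control replicate 2, with 10.4 there and 9.33 and 8.99 on control replicates 1 and 3. It was at 10.3, 9.58 and 9.83 on ethanol replicates 1, 2 and 3. In experiment 1 its range was as wide, with 9.04 and 10.1 on the controls and 9.39 and 10.4 on the ethanol arrays.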
